A study of Mus musculus with 16 samples.

Results

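The genotype by diet interaction in liver asks, gene by gene, whether the difference between mutant and control mice was the same on chow and on a high-fat diet (HFD). It was computed from all 16 liver libraries of the series as (Mutant HFD − Ctrl HFD) − (Mutant Chow − Ctrl Chow), on log2 of the deposited value plus 1. The interaction was tested for 12704 of 15544 genes, those reaching 1 in 4 libraries or more. A positive interaction means that the mutant level, relative to controls, was higher on HFD than on chow. A negative interaction means the opposite.

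The mice were females aged 27 weeks, in 4 groups of 4, and each mouse gave 1 library. Ctrl mice were Esr1 fl/fl, so the control groups also carried the floxed allele of Esr1, the gene for oestrogen receptor alpha (ERα). Mutant mice were Esr1 fl/fl with Cre expressed from Nkx2-1 (Esr1 Nkx2.1-cre in the study's notation). Mice of each genotype stayed on chow (standard diet) or received HFD for 17 weeks. The mutation is not a liver mutation: Nkx2-1 is active in the medial basal hypothalamus and some other tissues during development, and the floxed allele should remain intact in hepatocytes. The study is about a circulating factor that acts on bone, and HFD was its dietary challenge, so the comparison asks which liver genes respond to diet differently in the mutants. The line was kept on a mixed CD-1;129P2 background. Mice are numbered 1 to 4 within a group by the order of their samples, and these numbers do not pair mice across groups. Each library is taken as 1 mouse, and p-values measure the spread between these libraries.

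Liver handles dietary fat by making, burning, storing and exporting lipid, turns cholesterol into bile acids, and supplies most plasma proteins. In inflammation, cytokines acting through STAT3 switch hepatocytes to the acute-phase programme, in which serum amyloids, haptoglobin and orosomucoids are made in large amounts. Many liver genes also differ between the sexes under the control of growth hormone and STAT5. Gene lists for these programmes and for cell types that a piece of liver can contain were used to describe the interaction.

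Values are on the TPM scale (a share of the library corrected for transcript length) after adjustment between libraries, and the sequencing depth is unknown. Column totals ranged from 905897 to 1119703, and between 11834 and 12443 genes reached 1 in a library. Of 10 hepatocyte markers, 9 had a row, and none was at 0 in any library. Their summed level ranged from 57290 to 97300 over the 16 mice. In 2 respects libraries stood apart. Mutant chow mice 1 and 2 had neutrophil markers summing to 3123 and 6716, against 4.64 to 158 in the other 14 mice. The library titles carry numbers in 4 series, and on HFD the lower series holds 3 controls with mutant 1 and the higher series holds 3 mutants with control 4. The labels do not say what the series are. Limma gave a low weight to mutant HFD mouse 1 (0.329), control HFD mouse 4 (0.228) and mutant chow mouse 2 (0.354).

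No gene passed an adjusted threshold for the interaction. In the limma fit of the 4 group means, 0 of 12704 genes (0%) had an adjusted p under 0.05, and the smallest adjusted p was 0.895. With no adjustment, 535 genes (4.21%) had a p under 0.05, of which 228 (1.79%) had a positive and 307 (2.42%) a negative interaction. The share of 4.21% is below the 5% that the unadjusted threshold itself allows. An unadjusted p under 0.05 is called a low p from here on. The genes named here are therefore the top of a ranking and values of fixed lists, and none of them is a call.

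The interaction was measured with a median standard error of 0.26 (log2), against 0.18 for the genotype difference within 1 diet. The half-width of its 95% confidence interval had a median of 0.54 and ran from 0.32 at the 5th to 1.25 at the 95th percentile of genes. For 9164 genes (72.1%) the interval lay within ±1 unit of log2(value + 1), so a larger interaction on that scale was outside the interval of these genes. For genes with low values 1 such unit is more than a doubling of the level, because the added 1 shrinks log2 differences. The median interaction over all tested genes was −0.01.

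Genes ranked by their interaction mostly had genotype differences of opposite sign on the 2 diets. This was so for 493 of the 535 genes (92.2%), against 5759 of 12704 tested genes (45.3%), and since the 535 were selected for the size of the difference this is a description of them. Among the 228 positive genes the median genotype difference was −0.23 on chow and 0.36 on HFD (log2). Among the 307 negative genes it was 0.29 on chow and −0.31 on HFD. Of the 535 genes, the genotype difference had an unadjusted limma p under 0.05 on chow alone for 137, on both diets for 18, on neither for 148 and on HFD alone for the remainder. For 16 of the 18 the signs were opposite. In the plot of both genotype differences the selected genes lie on both sides of the diagonal, away from the origin.

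**Figure D1:**
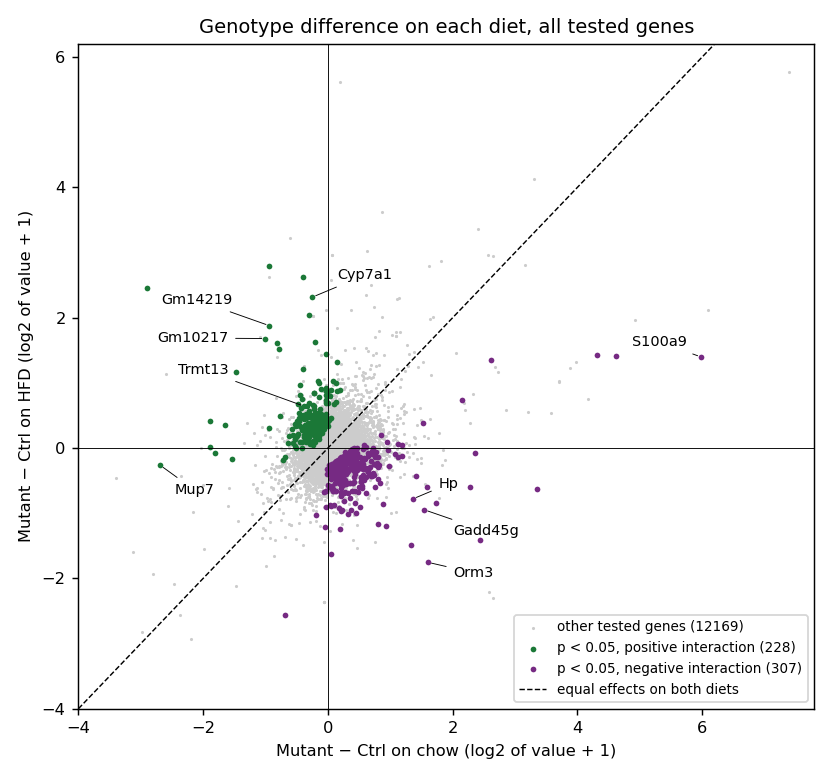
Each point is 1 of 12704 genes, with the mutant minus control difference on chow (x axis, log2 of value plus 1) and on HFD (y axis, same scale). Green points are the 228 genes with a positive interaction at unadjusted limma p under 0.05 and purple points the 307 with a negative one, and the dashed line marks equal differences on both diets. Most coloured points lie in the upper left and lower right, where the genotype difference changes sign with diet.

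The 12 top genes with a positive interaction (highest group mean of 5 or more) were Trmt13, Hsd17b14, Rxylt1, Zfp346, Gtpbp8, Brd3, Gm10217, Myo19, Rabl6, Ubr1, Gm14219 and Foxa1. Trmt13, which encodes a tRNA methyltransferase (GRCm38 chromosome 3, 116581093 to 116614587, minus strand), was 6.57, 7.51, 7.56 and 6.71 in controls on chow and 6.24, 5.75, 4.84 and 4.21 in mutants on chow. On HFD it was 3.38, 5.58, 5.80 and 6.47 in controls and 8.37, 7.62, 8.74 and 10.02 in mutants. The groups overlapped on neither diet, with mutants below controls on chow and above them on HFD. The interaction was 1.02 with a standard error of 0.22 (limma unadjusted p = 0.000353, adjusted p = 0.895), and the exact permutation p over 4900 arrangements was 0.000408, the smallest this design can give.

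Hsd17b14, a 17-beta-hydroxysteroid dehydrogenase (chromosome 7, 45554893 to 45567752, plus strand), was 11.3, 9.73, 12.5 and 12.3 in controls and 8.01, 7.26, 7.66 and 7.63 in mutants on chow. In the HFD groups it was 6.38, 5.25, 6.94 and 6.31 in controls and 7.12, 6.11, 10.1 and 10.5 in mutants. Controls on chow stood above the other 3 groups except for some overlap with mutants on HFD, and the genotypes overlapped on HFD but not on chow. The interaction was 0.89 ± 0.21 (SE, limma unadjusted p = 0.000660).

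Brd3, a bromodomain protein that reads acetylated histones (chromosome 2, 27445579 to 27507662, minus strand), averaged 29.9 ± 2.62 (SD, n = 4) in controls and 25.8 ± 2.81 in mutants on chow, and 21.9 ± 4.35 in controls and 31.8 ± 3.66 in mutants on HFD. The HFD groups did not overlap. Rxylt1, a glycosyltransferase that acts on dystroglycan, averaged 11.95 ± 1.87 and 9.48 ± 1.26 on chow against 8.35 ± 1.09 and 11.98 ± 1.65 on HFD, in controls and mutants, again with no overlap on HFD. Foxa1, a pioneer transcription factor of hepatocytes, had its difference on chow instead. It ranged from 10.5 to 12.4 in controls and from 5.22 to 8.76 in mutants on chow, and from 8.38 to 10.95 and from 8.99 to 12.6 on HFD.

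The other top positive genes had interactions of 0.72 (Gtpbp8, a GTP-binding protein) to 2.82 (Gm14219). Zfp346, a zinc finger protein that binds double-stranded RNA, was 4.15 to 5.97 in controls and 9.32 to 11.9 in mutants on HFD, an interaction of 1.01. Myo19, a myosin of mitochondria, Rabl6, a Rab-like GTPase, and Ubr1, a ubiquitin ligase of the N-degron pathway, had interactions of 0.78, 0.79 and 0.80. Gm14219 is a processed pseudogene and Gm10217 a predicted gene. Both are listed at 0 in some libraries, and their values are uncertain because reads are shared out among similar transcripts by estimation.

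The 12 top genes with a negative interaction were Gadd45g, Thap1, Slirp, Celsr1, Rec114, Itga2b, H2af-ps2, Wfdc21, Arhgef6, Rbx1, H3c14 and Tmc6. Gadd45g, a stress-induced inhibitor of growth (chromosome 13, 51846678 to 51848468, plus strand), had the smallest interaction p among the 24 top genes. It was 4.49, 9.17, 4.37 and 4.82 in controls and 17.2, 35.2, 10.1 and 16.3 in mutants on chow. Under HFD it was 12.6, 22.2, 13.3 and 7.68 in controls and 4.50, 8.56, 9.55 and 4.10 in mutants. Mutants were above controls on chow with no overlap, and on HFD they were lower with overlap of control 4. The interaction was −2.50 ± 0.52 (SE, limma unadjusted p = 0.000211, exact permutation p = 0.00204). It stayed between −2.75 and −2.18 when any 1 mouse was left out.

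Thap1, a zinc finger transcription factor, ranged from 7.97 to 10.5 in controls and from 10.7 to 16.9 in mutants on chow, against 7.93 to 14.7 and 6.51 to 9.74 on HFD. Slirp, which stabilises mitochondrial mRNAs, was 9.38, 10.3, 11.1 and 9.93 in controls and 18.2, 15.95, 14.9 and 13.96 in mutants on chow. On HFD it was 25.5, 14.5, 12.8 and 9.85 in controls and 11.4, 9.85, 10.97 and 8.81 in mutants. The genotypes were apart on chow and overlapped on HFD, where control 1 was far above the other controls. Interactions were −0.98 ± 0.25 for Thap1 and −1.07 ± 0.28 for Slirp (SE).

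Wfdc21, an abundant secreted whey acidic protein domain protein, averaged 2061 ± 156 in controls and 3023 ± 629 in mutants on chow, and 2836 ± 456 and 2369 ± 125 on HFD. Its interaction was −0.78. Celsr1, a cadherin of planar cell polarity, Arhgef6, an exchange factor for Rac and Cdc42, and Itga2b, the platelet integrin alpha subunit, had interactions of −0.90, −0.98 and −0.84. Rbx1, the RING subunit of cullin ubiquitin ligases, had an interaction of −0.48 with the smallest standard error of this group, 0.14. Rec114, a meiotic recombination protein, H3c14, a replication-dependent histone H3 gene, and Tmc6 had interactions of −1.10, −1.29 and −0.81. H2af-ps2 is a processed pseudogene with an interaction of −1.42, and its value carries the same uncertainty as other pseudogenes. The 24 top genes all had a lower p than 0.05 in each of the 16 fits that left out 1 mouse, in the fit with the title series as a term, and in the fit without mutant chow mice 1 and 2, although they were selected on these same mice.

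**Figure D2:**
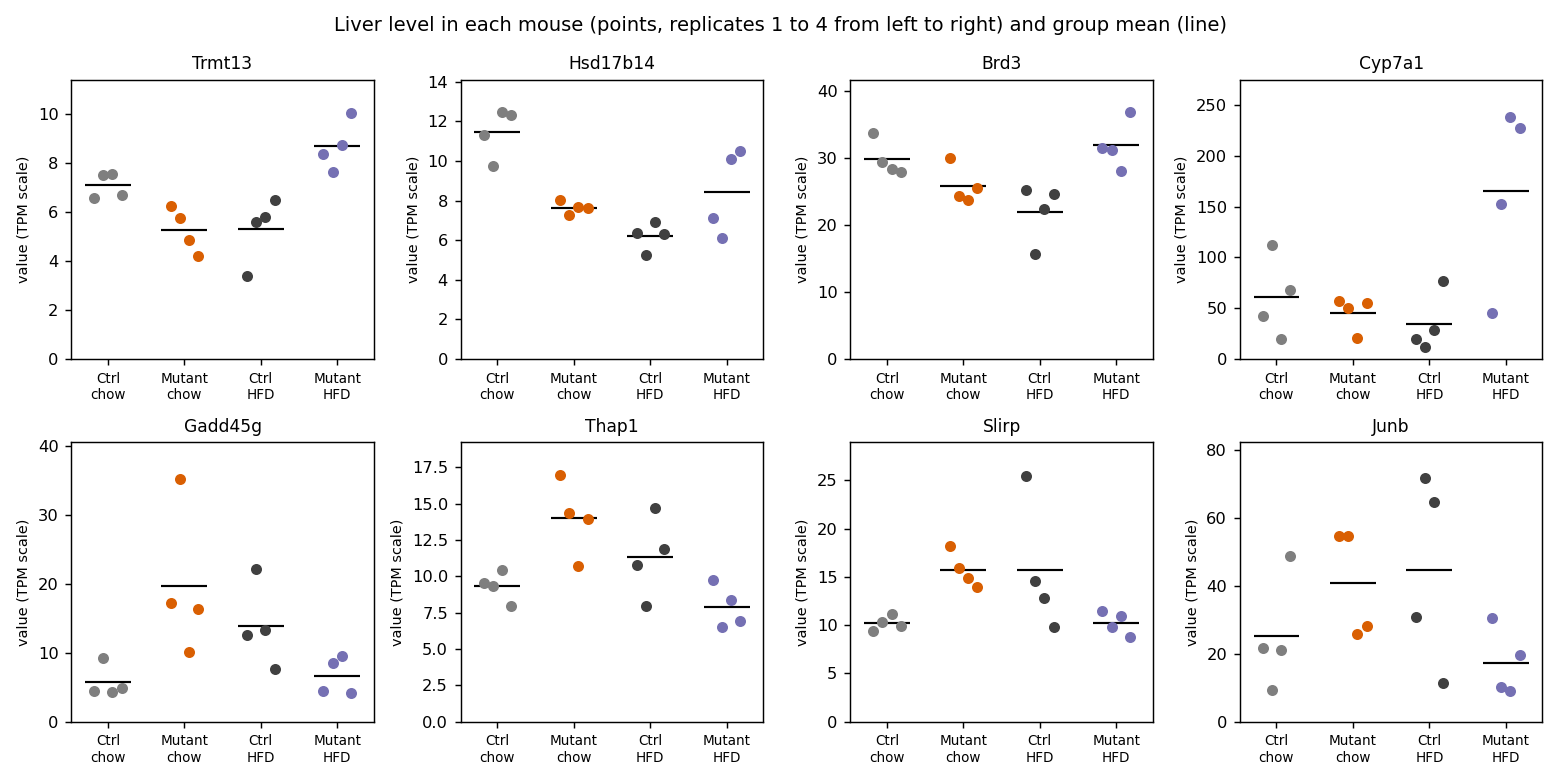
Level of 8 genes in each mouse (y axis, value on the TPM scale from 0) by group (x axis, points are mice 1 to 4 from left to right, lines are group means). Trmt13, Hsd17b14, Brd3 and Cyp7a1 have positive and Gadd45g, Thap1, Slirp and Junb negative interactions, and Gadd45g is above 10 in the 4 mutants on chow and below 10 in the 4 mutants on HFD.

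Immediate early and stress-response genes held the largest share of members at an unadjusted p under 0.05 among lists with at least 3 such members. Of 19 tested members, 5 had a low p, all negative, against 2.42% negative over all tested genes. The median interaction of the list was −0.60, and 17 of 19 estimates were below 0. The 5 were Gadd45g, Junb, Gadd45a, Btg2 and Klf2, and the last 2 are named outside the rule, after their values were seen. Junb, an AP-1 transcription factor subunit, was 21.6, 9.33, 21.2 and 48.8 in controls and 54.6, 54.8, 25.7 and 28.2 in mutants on chow. With HFD it was 30.7, 71.6, 64.8 and 11.3 in controls and 30.5, 10.1, 9.02 and 19.7 in mutants. The genotypes overlapped on both diets, and on HFD control 4 and mutants 1 and 4 lay within the range of the other genotype. The interaction was −1.97 ± 0.80 (SE, limma unadjusted p = 0.0254, exact permutation p = 0.0433).

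Gadd45a, a paralogue of Gadd45g and a target of p53, was 6.81, 26.6, 19.6 and 16.6 in controls and 6.59, 7.13, 8.56 and 11.6 in mutants on HFD. Its interaction was −1.28 ± 0.52. Btg2, an antiproliferative gene, had an interaction of −1.05 ± 0.43 and Klf2, a Krüppel-like factor, of −0.67 ± 0.31. Egr1 and Fos, classical immediate early transcription factors, had interactions of −1.13 ± 1.04 and −0.78 ± 0.78 (SE). Gadd45b and Klf4 were the members with estimates above 0, at 0.30 and 0.15. The number of members with a low p was 1 without control HFD mouse 2 and 9 without control HFD mouse 4. Over all 12704 tested genes those fits gave 344 and 1761 with a low p, against 535 with all mice. The list count was 2 with the title series as a term and 2 without mutant chow mice 1 and 2.

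The 250 bases upstream of the start of the 4 immediate early genes with the smallest p are shown, since these members had estimates of the same sign (RefSeq promoter table, GRCm38.p6, 5′ to 3′ along the gene, with capitals for matches of the motifs searched).
Gadd45g (chr13:51846425-51846674, plus strand): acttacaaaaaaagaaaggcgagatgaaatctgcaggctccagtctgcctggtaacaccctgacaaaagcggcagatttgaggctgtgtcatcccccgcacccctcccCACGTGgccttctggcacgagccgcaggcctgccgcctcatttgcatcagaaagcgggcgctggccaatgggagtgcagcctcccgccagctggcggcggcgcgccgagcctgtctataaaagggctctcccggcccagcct
Junb (chr8:84978749-84978998, minus strand): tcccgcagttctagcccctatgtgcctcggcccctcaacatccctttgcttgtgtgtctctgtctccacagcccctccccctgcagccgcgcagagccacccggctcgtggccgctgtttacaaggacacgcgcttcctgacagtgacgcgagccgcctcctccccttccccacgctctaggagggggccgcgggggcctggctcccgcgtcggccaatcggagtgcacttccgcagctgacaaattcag
Gadd45a (chr6:67037408-67037657, minus strand): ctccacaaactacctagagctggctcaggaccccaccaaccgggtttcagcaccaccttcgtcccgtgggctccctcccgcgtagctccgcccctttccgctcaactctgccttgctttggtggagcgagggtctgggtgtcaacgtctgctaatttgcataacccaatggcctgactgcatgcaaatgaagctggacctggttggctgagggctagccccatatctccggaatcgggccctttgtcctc
Btg2 (chr1:134079156-134079405, minus strand): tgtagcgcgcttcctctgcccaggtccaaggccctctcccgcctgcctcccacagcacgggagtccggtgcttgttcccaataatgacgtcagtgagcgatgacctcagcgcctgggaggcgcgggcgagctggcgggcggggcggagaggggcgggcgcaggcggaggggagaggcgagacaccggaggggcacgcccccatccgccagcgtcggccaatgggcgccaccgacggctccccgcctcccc
The motifs, searched on both strands, were CACGTG (E-box), TTANGTAA (core of the D-box), TCACNCCAC (sterol element) and TTCNNNGAA (STAT element). A single match was found, an E-box in the Gadd45g promoter that begins 142 bases before the start. Over the 32851 promoters of the table, 6.02% held the E-box, 2.06% the D-box core, 1.05% the sterol element and 7.02% the STAT element in the same window. The 4 windows had a GC content of 59.2% to 73.2%, against a median of 52.4% over all promoters. The absence of the other letters says nothing about the factors.

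Acute-phase proteins had the most negative median interaction of the metabolic and secretory lists. Of 27 tested members 6 had an unadjusted p under 0.05, all negative, against 2.42% negative over all tested genes. The median was −1.10 and 26 of 27 estimates were below 0. The 6 were Orm3, Hp, Saa4, Orm2, Mt2 and Lcn2, and the last 3 are named after their values were seen. In that order their exact permutation p values were 0.0163, 0.0367, 0.0216, 0.0563, 0.200 and 0.102. Hp, haptoglobin, the scavenger of free haemoglobin (chromosome 8, 109575128 to 109579172, minus strand), was 1641, 1040, 1427 and 1273 in controls and 3894, 17950, 1300 and 1504 in mutants on chow. In the HFD groups it was 6147, 3815, 2338 and 1668 in controls and 3609, 1335, 1318 and 1660 in mutants. Mutant chow mice 1 and 2 and several controls on HFD were high, while mutants 3 and 4 on chow lay within the control range. The interaction was −2.14 ± 0.92 (SE, limma unadjusted p = 0.0341).

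Orm3, an orosomucoid, was 16.5, 26.4, 29.7 and 52.4 in controls and 143, 430, 32.7 and 31.2 in mutants on chow. Under HFD it was 154, 75.6, 49.6 and 30.5 in controls and 49.6, 6.60, 10.1 and 33.3 in mutants, and the interaction was −3.36 ± 1.12. Lcn2, the siderophore-binding lipocalin, was 4677 in mutant chow mouse 2, 580 in mouse 1 and 598 in control HFD mouse 1, and at most 97.8 in the other 13 mice. Saa1, a serum amyloid also named after its values were seen, was 20630 in mutant chow mouse 2 and 2886 in control HFD mouse 1, against 22.1 to 47.8 in mutant chow mice 3 and 4. Its interaction was −4.96 with a limma unadjusted p = 0.0560. Socs3, the feedback inhibitor of STAT3 signalling and the member of the growth hormone and STAT5 list with a low p, was 12.7 and 29.1 in mutant chow mice 1 and 2 and 16.9 and 16.6 in control HFD mice 1 and 2, and at most 7.94 elsewhere. Its interaction was −2.12 ± 0.68 (SE, limma unadjusted p = 0.00698). The other 14 members of that list had no low p.

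Neutrophil markers were high in the same 2 mutant chow mice. All 9 tested markers had estimates below 0, with a median of −2.95. For Camp, Elane, Ltf, Mpo, Ngp and Retnlg every control value was under 1. These genes passed the filter through mutant mice alone, so the shared sign and the share with a low p are descriptions only. Of the 9, 2 had a low p (22.2%, against 4.21% over all tested genes), S100a9 at −4.58 ± 1.77 and Camp at −3.20 ± 1.49 (SE). Their exact permutation p values were 0.146 and 0.232. Camp had a low p in 3 of the 16 fits that left out 1 mouse. The calcium-binding alarmin S100a9 was 2.03, 2.71, 1.04 and 5.76 in controls and 1339, 2640, 12.8 and 49.6 in mutants on chow. On HFD it was 3.60, 14.1, 12.4 and 6.44 in controls and 7.77, 23.3, 21.6 and 68.2 in mutants. Genes of neutrophil precursors were among them: the granule enzymes Elane and Mpo were 76.1 and 80.6 in mutant chow mouse 1 and 131 and 143 in mouse 2, against 0.412 to 3.35 in mutant chow mice 3 and 4. Of 10 markers with a row, 2 were at 0 in a control chow library, 4 in a control HFD library, 2 in a mutant HFD library and none in a mutant chow library. In whole liver, more cells of a type and more RNA per cell cannot be told apart.

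The acute-phase count depended on these mice. Without mutant chow mice 1 and 2, a setting chosen after seeing the data, 0 of 27 acute-phase members and 0 of 9 neutrophil markers had an unadjusted limma p under 0.05, and the medians were −0.19 and −0.13. Over all genes the same fit gave 488 genes with a low p, of which 255 were positive. The acute-phase count was 1 without control chow mouse 2, control HFD mouse 2 or mutant HFD mouse 2, and 16 without mutant chow mouse 4. It was 0 with the title series as a term. Without mutant chow mouse 4, 714 of 12704 tested genes had a low p. The neutrophil count was 9 without mutant chow mouse 3 and 8 without mutant chow mouse 4. Those fits gave 818 and 714 genes with a low p over all 12704 tested. In most other fits that left out 1 mouse the neutrophil count was 1. It was 3 with the title series as a term and 0 without mutant HFD mouse 1 and control HFD mouse 4. The part of neutrophils in the acute-phase values was not tested.

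**Figure D3:**
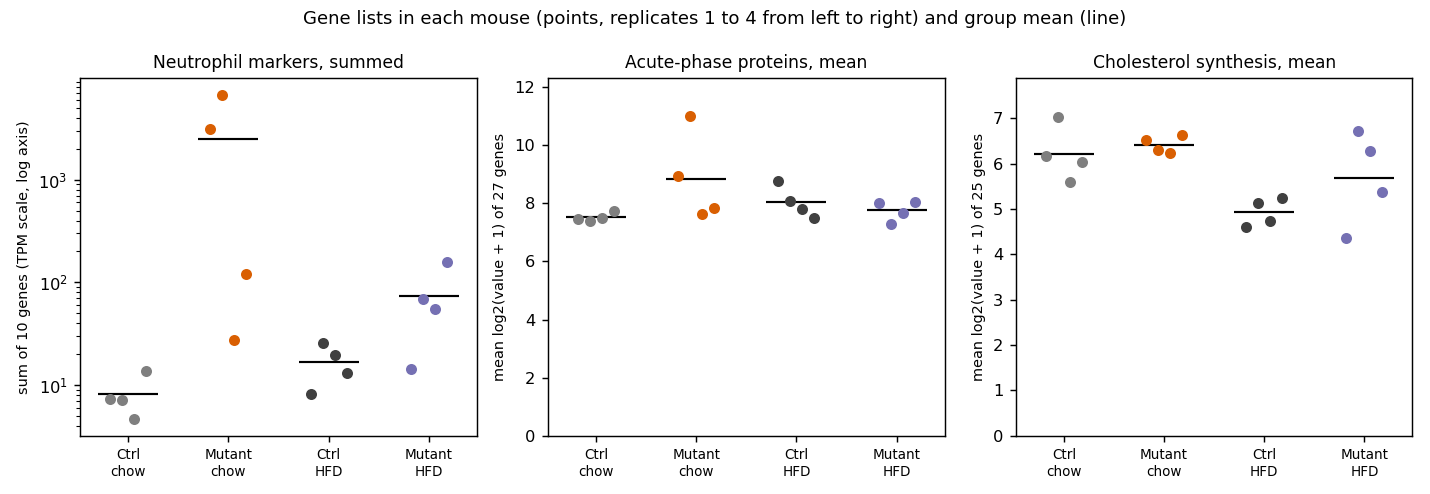
Summed neutrophil markers (left, TPM scale on a log axis), mean log2 level of acute-phase proteins (middle) and of cholesterol synthesis genes (right) in each mouse, by group, with group means as lines. Mutant chow mice 1 and 2 reach 3123 and 6716 for neutrophil markers and 8.93 and 11 for acute-phase proteins, and mutant HFD mouse 1 is the lowest of its group for cholesterol synthesis at 4.37.

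Complement and coagulation genes had 3 of 31 members with a low p (9.68%, against 4.21% over all tested genes), all negative, and a median of −0.32. C9, the pore-forming terminal complement protein, was 107, 69.0, 105 and 122 in controls and 139, 278, 75.3 and 90.9 in mutants on chow, and 214, 174, 137 and 205 in controls and 152, 76.7, 78.8 and 81.1 in mutants on HFD. On HFD mutants 2 to 4 lay below every control, and mutant 1 lay among them. Its interaction was −1.31 ± 0.48, and those of Cfb and C2, which form the C3 convertases, were −0.46 ± 0.20 and −0.40 ± 0.18 (SE). The count was 0 without mutant chow mice 1 and 2 and 1 without control chow mouse 2 or mutant HFD mouse 2 or 3. It was 8 without mutant chow mouse 3 or mutant HFD mouse 1, fits that gave 818 and 1298 low p over 12704 genes.

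Macrophage markers had 1 of 17 members with a low p (5.88%, against 4.21% over all tested genes). This was Clec4f, a lectin of Kupffer cells, with an interaction of −1.14 ± 0.41. The median was −0.77 and 16 of 17 estimates were below 0. The summed markers were 1169 and 1567 in mutant chow mice 1 and 2 and 270 to 899 in the other mice, and the median was −0.15 without those 2 mice. The count was 8 without mutant chow mouse 3, a fit in which 818 of 12704 tested genes had a low p. Lymphocyte and MHC class II markers had a median of −0.49 and 0 of 14 members with a low p, and their median was 0.12 without the same mice. Stellate cell (14 of 16 listed were tested) and bile duct markers (7 of 11) had 0 members with a low p. The same held for adipose (3 of 8), red blood cell (5 of 8), pancreas and gut (2 of 12) and skeletal muscle markers (2 of 8). These last lists describe little, since few of their markers were tested. Among 10 endothelial markers Tek, the angiopoietin receptor, had a low p and an interaction of 0.58 ± 0.24.

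Cytosolic ribosomal proteins had small interactions, mostly below 0. The list had 4 of 31 members with a low p (12.9%, against 4.21% over all tested genes), all negative, with Rps3, Rps14 and Rps20 among them. The median was −0.38 and 28 of 31 estimates were below 0. Rps3 was 235, 219, 240 and 230 in controls and 271, 272, 226 and 245 in mutants on chow. With HFD it was 273, 291, 321 and 256 in controls and 262, 205, 231.2 and 215 in mutants. Control HFD mice 1 to 3 had the highest values, and control 4 lay below mutant 1. The interaction was −0.45 ± 0.15 (SE, limma unadjusted p = 0.00882). The mean log2 level of the list was 8.001 to 8.08 in control HFD mice 1 to 3 and 7.98 in mutant HFD mouse 1, the 4 mice of the lower title series, and 7.38 to 7.47 in the 4 HFD mice of the higher series. With the title series as a term the median was −0.09 and 2 members had a low p, 1 in each direction. The count was 24 without control HFD mouse 4 and 1 without mutant chow mouse 2 and in 7 other fits that left out 1 mouse. It was 1 with other size factors, 2 of 30 with a filter at 5 and 0 without mutant chow mice 1 and 2. Without control HFD mouse 4, 1761 of 12704 tested genes had a low p.

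Protein folding genes of the endoplasmic reticulum and heat shock genes had a median of −0.27, with 24 of 26 estimates below 0. A low p was found for 1 member (3.85%, against 4.21% over all tested genes). This was Pdia6, a disulphide isomerase, at 204, 156, 125 and 111 in controls and 122, 111, 113 and 119 in mutants on HFD, and 116 to 122 in controls and 119 to 161 in mutants on chow. Its interaction was −0.57 ± 0.22. The median of the list was −0.04 without mutant chow mice 1 and 2 and −0.15 without control HFD mouse 1 or control chow mouse 4. The count was 3 without control HFD mouse 4, a fit in which 1761 of 12704 tested genes had a low p.

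Genes of cholesterol synthesis, lipogenesis and fatty acid oxidation had interactions mostly above 0 and few low p. Cholesterol synthesis genes had 0 of 25 members with a low p, yet 25 of 25 estimates were above 0 and the median was 0.51. The mean log2 level of the list was 5.59 to 7.03 in controls and 6.23 to 6.63 in mutants on chow. In the HFD groups it was 4.59, 5.13, 4.74 and 5.23 in controls and 4.37, 6.73, 6.28 and 5.37 in mutants, so mutants 2 to 4 lay above every control and mutant 1 below. Without mutant HFD mouse 1 the median was 0.93 and 10 members had a low p, in a fit where 1298 of 12704 tested genes had one. The median was 0.14 without mutant HFD mouse 2 and −0.14 with the title series as a term. Members of a pathway are not independent of each other, so the shared sign is 1 pattern and not 25.

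Bile acid genes had 2 of 26 members with a low p (7.69%, against 4.21% over all tested genes), both positive, and a median of 0.15. Cyp7a1, the rate-limiting enzyme of bile acid synthesis (chromosome 4, 6265612 to 6275633, minus strand), was 42.1, 112, 20.2 and 68.4 in controls and 56.9, 50.3, 20.6 and 55.0 in mutants on chow. Under HFD it was 19.7, 12.1, 28.8 and 77.1 in controls and 45.1, 152, 239 and 228 in mutants. On chow the genotypes overlapped fully, and on HFD mutants 2 to 4 stood above every other mouse in the table while control 4 was above mutant 1. The interaction was 2.56 ± 0.88 (SE, limma unadjusted p = 0.0107, exact permutation p = 0.0425). It was 1.36 with the title series as a term (limma unadjusted p = 0.0593) and 2.89 without mutant chow mice 1 and 2. Slco1a4, an organic anion transporter, was 68.7, 67.1, 75.8 and 102 in controls and 68.6, 106, 140 and 129 in mutants on HFD, and 92.5 to 155 in both chow groups. Its interaction was 0.69 ± 0.29. The count of the list was 1 in 8 of the 16 fits that left out 1 mouse, 6 without mutant HFD mouse 1 and 0 with the title series as a term. Without mutant HFD mouse 1, 1298 of 12704 tested genes had a low p.

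Fatty acid oxidation genes had 2 of 28 members with a low p (7.14%, against 4.21% over all tested genes), both positive, and a median of 0.32. Ppargc1a, the coactivator of mitochondrial and fasting genes, had an interaction of 0.67 ± 0.31 and Acot2, a mitochondrial acyl-CoA thioesterase, of 0.87 ± 0.41. Their exact permutation p values were 0.0494 and 0.0641. The count of the list was 0 in 9 fits that left out 1 mouse and 4 without mutant chow mouse 3 or 4. Those fits with 4 gave 818 and 714 low p over all 12704 tested genes. The median of the list was −0.13 without mutant chow mice 1 and 2. Irs1, an adaptor of the insulin receptor and a member of the gluconeogenesis and fasting list, was 3.27, 3.75, 3.52 and 4.72 in controls and 4.16, 7.02, 7.39 and 5.74 in mutants on HFD, and 4.39 to 6.95 in both chow groups. Its interaction was 0.70 ± 0.24 (SE, limma unadjusted p = 0.00911). With Ppargc1a, which is on both lists, 2 of 21 members of that list had a low p (9.52%, against 4.21% over all tested genes). Lipogenesis genes had 0 of 22 with a low p and a median of 0.33, which was −0.08 without mutant chow mice 1 and 2, −0.01 with the title series as a term and 0.11 without control HFD mouse 1. Lipid droplet genes had a low p in 1 of 20 (5.0%, against 4.21% over all tested genes). This was Fitm2, which partitions fat into droplets, at 0.42 ± 0.20. Estimates of the lipid droplet list were above 0 for 11 genes and below 0 for 9. The median of that list was 0.04, and −0.19 without mutant chow mice 1 and 2.

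Female-biased liver genes had 1 of 28 members with a low p (3.57%, against 4.21% over all tested genes). This was Sult1e1, oestrogen sulfotransferase, and it had a sign opposite to that of most members. Sult1e1 was 0.0660 to 0.878 in controls and 3.45 to 18.8 in mutants on chow, and 0.0638 to 0.851 in controls and 1.61 to 3.79 in mutants on HFD. Mutants were above controls on both diets with no overlap, and the distance was smaller on HFD, with an interaction of −1.26 ± 0.51 (SE, limma unadjusted p = 0.0258, exact permutation p = 0.313). Control values lay below 1, where the added 1 weighs heavily on the log2 scale. With a pseudocount of 0.1, 0 members of the list had a low p. The Sult1e1 interaction was −0.54 without mutant chow mice 1 and 2 (limma unadjusted p = 0.192). It had a low p in 11 of the 16 fits that left out 1 mouse. The list as a whole had a median of 0.62, with 22 of 28 estimates above 0. Its mean log2 level was 7.13 to 7.42 in mutant HFD mice 2 to 4 and 5.41 in mutant 1, against 5.25 to 6.01 in controls on HFD. The median was −0.02 with the title series as a term, and without mutant HFD mouse 1 the count was 11, of which 10 were positive. That fit gave 1298 low p over all 12704 tested genes.

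Male-biased genes had 2 of 18 members with a low p (11.1%, against 4.21% over all tested genes), Mup21 at 1.41 ± 0.62 and Mup7 at 2.42 ± 1.11. Their exact permutation p values were 0.0604 and 0.128. The median of the list was −0.03. The count was 0 in 5 of the 16 fits that left out 1 mouse, 4 without mutant chow mouse 3 and 0 with the title series as a term. Without mutant chow mouse 3, 818 of 12704 tested genes had a low p. Mup21 and Mup7 encode major urinary proteins, a family of near-identical genes whose values are uncertain. Hormone receptors had 0 of 11 members with a low p. Esr1, the floxed gene, was 10.99, 12.2, 7.59 and 15.95 in controls and 19.7, 17.0, 9.98 and 8.02 in mutants on chow. On HFD it was 7.52, 6.14, 8.09 and 7.07 in controls and 6.42, 22.9, 21.1 and 20.5 in mutants, so that mutant 1 stood with the controls. The interaction was 0.89 ± 0.49 (SE, limma unadjusted p = 0.0862), with a 95% interval from −0.14 to 1.92. Without mutant chow mice 1 and 2 it was 1.37 (limma unadjusted p = 0.0168), with the title series as a term 0.41 (limma unadjusted p = 0.403), and it ran from 0.68 to 1.29 over the fits that left out 1 mouse, with a low p in 3 of 16. These levels do not check the deletion, since the Cre driver is not a liver driver. Fst, the activin antagonist follistatin, had an interaction of 0.60 ± 0.70 (SE), with a 95% interval from −0.88 to 2.08. It was 0.23 without control chow mouse 2, 0.97 without control HFD mouse 1 and 1.31 without mutant chow mice 1 and 2, with no low p in these fits.

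Secreted hepatokines and bone-related factors, the group closest to the purpose of the liver profile, had a median of −0.05. Of 29 members, 1 had a low p (3.45%, against 4.21% over all tested genes). This was Fetub, a fetuin, which was 587, 991, 507 and 542 in mutants on chow, 367 to 510 in controls on chow, 456 to 543 in controls on HFD and 430 to 555 in mutants on HFD. Its interaction was −0.59 ± 0.26 and −0.32 without mutant chow mice 1 and 2. Among members with no low p, Igf1 had an estimate of 0.08, Fgf21 of −0.14 and Ahsg, the abundant fetuin A, of 0.01.

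No member had a low p in the lists of interferon response (26 tested), urea cycle and amino acids (20), core clock (15), clock output (15), Nrf2 and glutathione (23), oxidative phosphorylation (29) and hepatocyte markers (9). Their medians ran from −0.09 to 0.39. Among 21 xenobiotic genes 1 had a low p (4.76%, against 4.21% over all tested genes), Cyp3a13 at −0.74 ± 0.32. Over the 34 lists together, 35 of 586 distinct tested genes (5.97%) had a low p, close to the 4.21% over all tested genes.

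**Figure D4:**
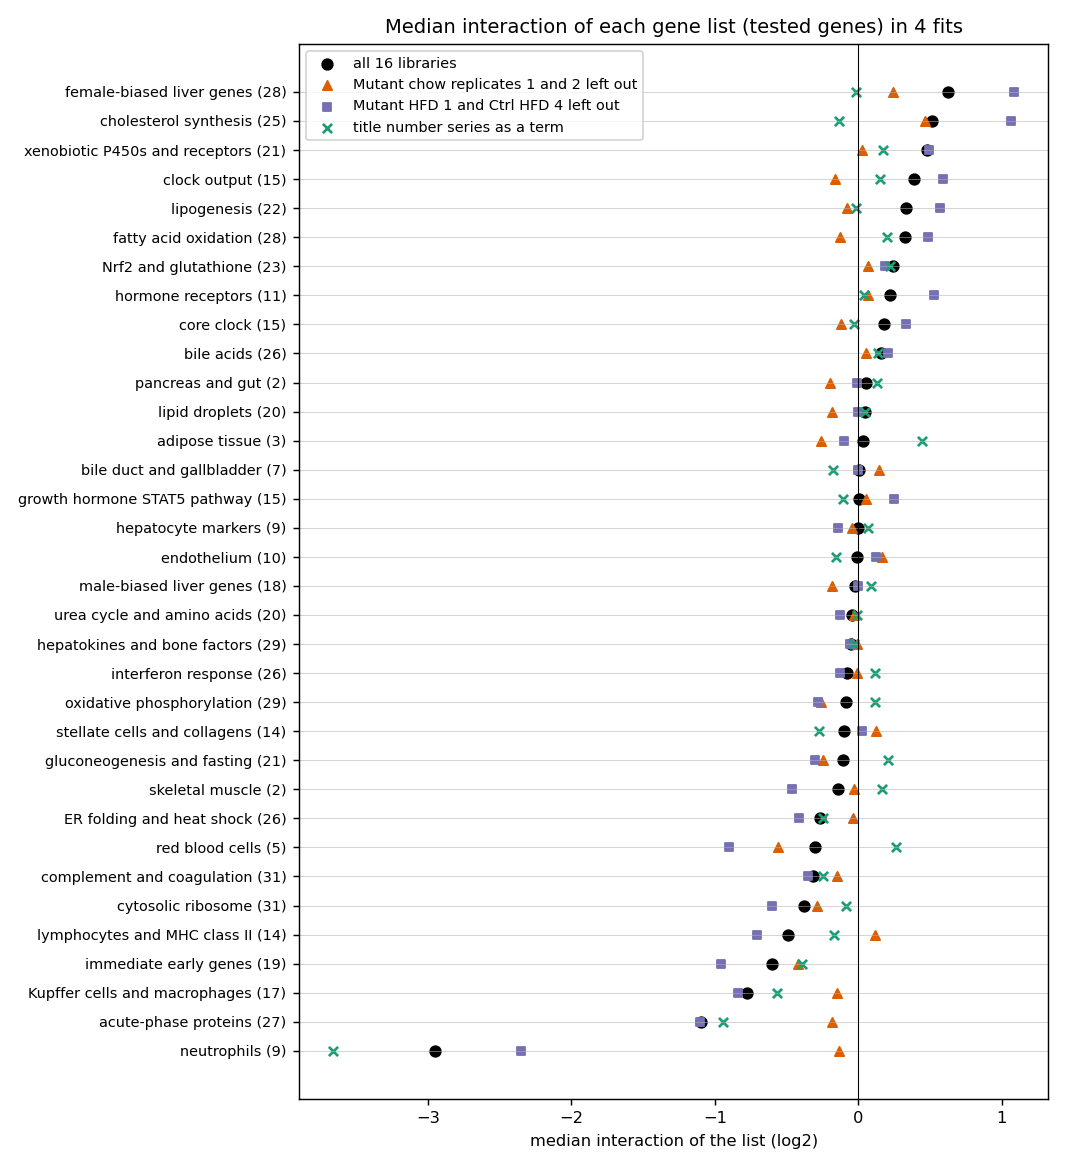
Median interaction (x axis, log2) of the tested genes of each of 34 lists (y axis, number of tested genes in brackets) with all 16 libraries (black circles), without mutant chow mice 1 and 2 (orange triangles), without mutant HFD mouse 1 and control HFD mouse 4 (purple squares) and with the title number series as a term (green crosses). Neutrophil and acute-phase medians move from −2.95 and −1.10 to −0.13 and −0.19 without the mutant chow mice, and the cholesterol synthesis median moves from 0.51 to −0.14 with the series term.

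The number of genes with a low p rested on a few mice. It was 1761 without control HFD mouse 4, 1298 without mutant HFD mouse 1, 818 without mutant chow mouse 3, 714 without mutant chow mouse 4, 350 without mutant HFD mouse 2 and 344 without control HFD mouse 2, against 535 with all mice. The adjusted count was 0 in each of these fits. With both control HFD mouse 4 and mutant HFD mouse 1 left out, 914 genes passed the adjusted threshold and 3214 had a low p. In that fit the title series and genotype on HFD coincide and cannot be told apart. With the series as a term instead, which compares genotypes within a series, 0 genes passed and 446 had a low p. Of the 535 genes, 535 kept their sign and 201 (37.6%) kept a low p in all 16 fits that left out 1 mouse, and 230 (43.0%) kept a low p with the series term.

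**Figure D5:**
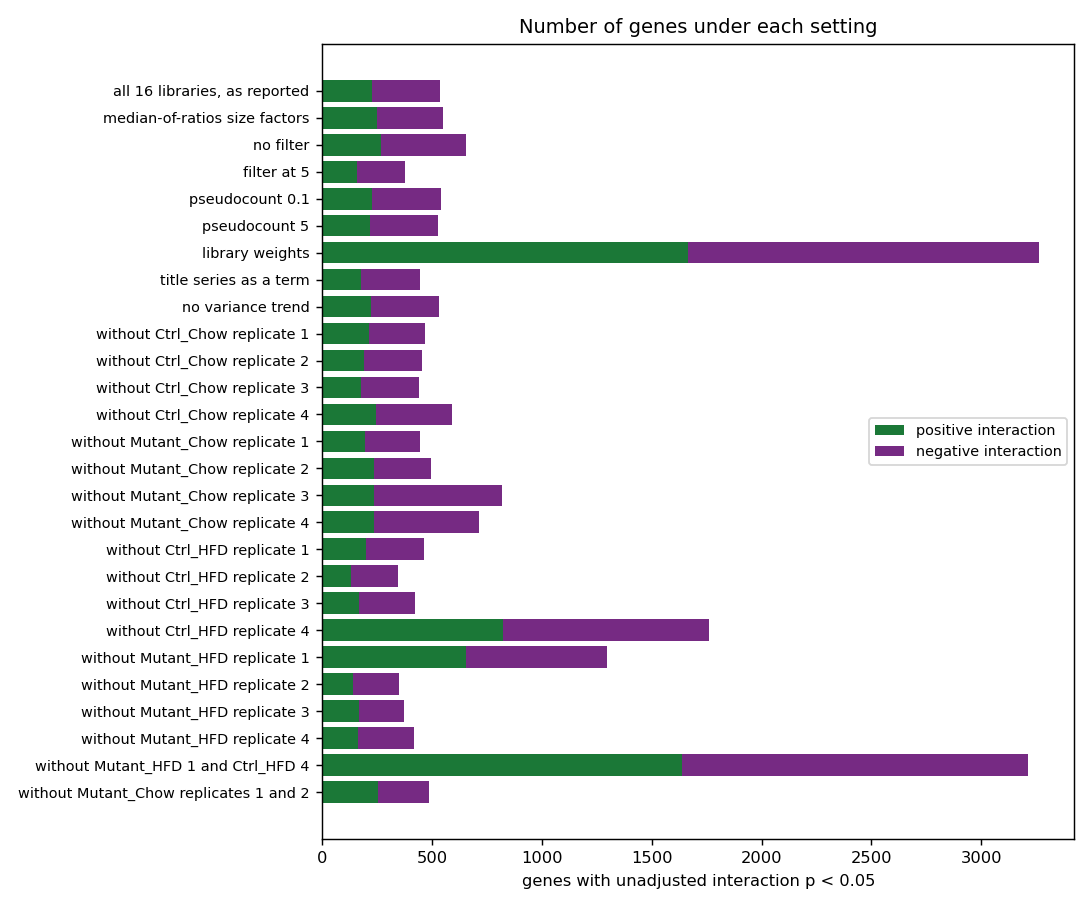
Number of genes with an unadjusted interaction p under 0.05 (x axis), split into positive (green) and negative (purple) interactions, for the reported fit and each alternative (y axis). The bars reach 3261 with library weights and 3214 without mutant HFD mouse 1 and control HFD mouse 4, against 535 with all libraries.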

How the data were processed

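Total RNA of mouse liver was sequenced by the study's provider, and reads were assigned to transcripts with kallisto and tested with sleuth on mm10, per the labels. Versions, annotation release and filters are not given in the sources used here. The authors deposited 1 table of a signal per gene. Its values are fractional with unequal column totals, and are read here as TPM adjusted by size factors, an inference from the values. This scale keeps no depth, so depth is unknown, no counting interval was computed, and precision comes from the spread between mice. Values of near-identical genes are estimates.

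The interaction was fitted with limma 3.58.1 (R 4.3.3) on log2(value + 1), which understates changes of low genes. The fit estimated the mean of each of the 4 groups from all 16 libraries, without covariates and with a variance trend. P-values were adjusted over 12704 genes by Benjamini-Hochberg, with a threshold of 0.05. A count model was not applicable. "Low p" means an unadjusted p under 0.05. Two-sided exact permutation tests rearranged genotype within diet (4900 arrangements), so their null is no genotype difference on either diet. The script was tested on simulated data. Named genes were Esr1, Fst, the 12 smallest p in each direction (highest group mean of 5 or more) and up to 3 members of each list with a low p. Some single genes are not reported here. Members, lists and rules were chosen with earlier results of these data known. Positions are from GENCODE M21 on GRCm38 by gene identifier (12696 of 12704 matched), and the promoters are from RefSeq. Alternatives were other size factors, filters and pseudocounts, library weights, the title series as a term nested in diet, no variance trend, and leaving out libraries. Summaries used Python 3.11.15, pandas 2.3.3 and numpy 2.4.6, and figures matplotlib 3.10.9.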

Additional observations from a re-analysis of the deposited data

Results flagged for a closer look

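Values that stood apart within their group of 4 mice by Dixon's criterion were found in 20 of 252 groups of named genes and lists examined. The criterion flags about 1 in 20 groups of normally distributed values, and that rate is not a reference here. For genes it was applied to values not on the log2 scale, where a high value stands apart more easily. Many of the genes were also named for their values. Mutant chow mouse 2 held 7 of them, all high: Hp at 17950 (1300 to 3894 in the other 3 mice), Lcn2 at 4677 (25.4 to 580), Mt2, a metallothionein, at 5541 (174 to 734), Orm2 at 4650 (17.6 to 395), Saa4 at 609.8 (123 to 189), Fetub at 991 (507 to 587) and Rps20 at 233.6 (171 to 181). Mutant chow mouse 3 was high for Gadd45a at 15.95 (8.28 to 9.51).

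Mutant HFD mouse 1 was low for Esr1 at 6.417 (20.5 to 22.9) and high for Hp at 3609 (1318 to 1660) and C9 at 151.6 (76.7 to 81.1). Control HFD mouse 1 was high for Fst at 8.324 (1.85 to 2.80) and Lcn2 at 597.8 (28.3 to 82.4) and low for Rxylt1 at 6.740 (8.64 to 9.02). Control HFD mouse 4 was high for Mup7 at 22.38 (0.910 to 3.51).

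Among controls on chow, mouse 1 was high for Acot2 at 17.01 (9.58 to 10.6) and for Camp at 0.406 (0.104 to 0.144), mouse 2 was high for Gadd45g at 9.171 (4.37 to 4.82), and mouse 4 was high for Tmc6 at 10.44 (7.56 to 7.90) and Mup7 at 57.32 (18.3 to 19.9).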

How the results depend on the processing

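None of the 54 genes named by the rule changed the sign of its interaction under the alternatives run, which were not listed for the other genes named. The adjusted count of 0 held under every setting except without mutant HFD mouse 1 and control HFD mouse 4, where 914 genes passed, 3214 had a low p, 1639 were positive and 1575 negative. Library weights gave 0 adjusted and 3261 low p, 1663 positive and 1598 negative, and the smallest adjusted limma p was 0.0521. That fit gave little weight to mutant HFD mouse 1 (0.329) and control HFD mouse 4 (0.228). Title series and genotype on HFD are therefore poorly separated in it too. When any 1 library was left out, the adjusted count was 0, and the low p count ran from 344 to 1761, the positive count from 129 to 823 and the negative count from 205 to 938. The cause of these changes was not tested. Counts under other size factors (549), no filter (655), a filter at 5 (377), pseudocounts of 0.1 (540) and 5 (526), no variance trend (532), the series term (446) and without mutant chow mice 1 and 2 (488, added after seeing the data) were within 1.5 times the reported 535. The positive share was 42.6%, and 29.0% without mutant chow mouse 3. Without mutant chow mice 1 and 2 it was 52.3%. Of 34 list genes with a low p outside the top 12 that were examined, 4 kept it without those mice and 8 with the series term. No paired analysis was possible because the labels carry no replicate numbers. With 4 mice per group and unknown depth, interactions smaller than about the median interval half-width of 0.54 were not resolved for a typical gene. Larger ones could also be missed at the adjusted threshold. In the simulated data, 56% of the genes of higher level that were given an interaction of 1 log2 unit passed the adjusted threshold. Those data also held genes given interactions of 2, 3 and 4 units, which the adjustment took in. The share that would pass in the deposited libraries, where no gene passed, was not tested.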
